A study of Arabidopsis thaliana with 4 samples.

Results

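The genes described here are the Arabidopsis thaliana genes whose symbol is LCR followed by a number, for low-molecular-weight cysteine-rich. Membership was set by that symbol, but the family was chosen with earlier results of these data known. The rule took probe sets of an Affymetrix array that match a single named gene. Of the 22746 probe sets 8 met it: LCR24, LCR59, LCR66, LCR67, LCR68, LCR69, LCR72 and LCR80. The RefSeq gene table lists 81 genes with such a symbol, 80 of them protein coding, and the other 73 were not analysed here. Transcripts were measured in shoots of 2-week-old seedlings of the mutant aln-1 (2 arrays) and of the wild type Col-0 (2 arrays), each array a separate biological replicate. The aln-1 plants carry a mutant allele of ALN, the gene of allantoinase, in the Col-0 background and accumulate allantoin; all seedlings grew on the same sterile sucrose medium in long days, and the mutant is represented by this 1 allele. The comparison asked which transcripts differ when allantoin accumulates, in a study of abscisic acid metabolism and abiotic stress.

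LCR genes encode small secreted peptides of the plant defensin type, in which a short mature peptide is held together by disulfide bridges between conserved cysteines. The family was described through its likeness to pollen coat peptides of Brassica, and plant defensins in general are best known for growth inhibition of fungi. Many LCR genes are thought to act in flowers, while several of the classical defensins are also made in leaves, roots or seeds. Of the 8 genes, 5 also carry a plant defensin name in the gene table: LCR67 is PDF1.1, LCR69 is PDF2.2, LCR68 is PDF2.3, LCR66 is PDF2.4 and LCR72 is PDF2.6. LCR24, LCR59 and LCR80 have no such second name. LCR68, LCR69 and LCR72 lie close together in the gene table, with loci AT2G02130, AT2G02100 and AT2G02140.

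No LCR gene passed the test of the genotype difference. In limma, a linear model fitted over all probe sets, 0 of 8 had a Benjamini-Hochberg adjusted p under 0.05, against a background of 0.154% of probe sets called higher and 0.101% called lower in aln-1. At an unadjusted limma p under 0.05 there was 1 LCR gene, LCR24, lower in aln-1, while 12.3% of all probe sets were lower and 11.1% higher at that limit. For 7 of the 8 genes the aln-1 mean was below the Col-0 mean, as it was for 12701 of all 22746 probe sets. The median difference of the LCR genes was -0.46 on the log2 scale, against -0.08 over all probe sets. For 5 of 8 both aln-1 arrays lay below both Col-0 arrays, and for 0 of 8 both lay above; over all probe sets 34.9% were separated in the lower and 25.2% in the higher direction. For none of the 8 did all 4 comparisons of an aln-1 array with a Col-0 array reach 2-fold (3.54% of all probe sets were so in the lower and 4.67% in the higher direction). The median difference was -0.23 without Col-0 replicate 1 and -0.25 without aln-1 replicate 2, and it was -1.04 without aln-1 replicate 1 and -0.86 without Col-0 replicate 2, so its size rested on single arrays.

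Every value is a log2 signal relative to the median of that probe set over the 4 arrays, so values of one gene can be compared between arrays, but levels of different genes cannot. Means are given with SD and n = 2 arrays per genotype, differences are aln-1 minus Col-0, and their standard errors (SE) and 95% confidence intervals are those of limma. With 2 arrays against 2, the smallest p of an exact permutation test is 0.333, and no such test is given. The rounding steps of the deposited values gave each probe set a rough brightness class: bright (signals of at least 256), middle (from 16) and dim (below 16 on at least 1 array). LCR68 and LCR69 were bright, LCR66 and LCR72 middle, and LCR24, LCR59, LCR67 and LCR80 dim, 50% of the genes against 19.4% of all probe sets. The mutated gene itself, ALN, was at -1.59 and -1.72 on the aln-1 arrays and at 1.59 and 2.03 on the Col-0 arrays, a difference of -3.46 (SE 0.22, limma adjusted p = 0.0580). Array medians over all probe sets lay between -0.04 and 0.04.

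**Figure D1:**
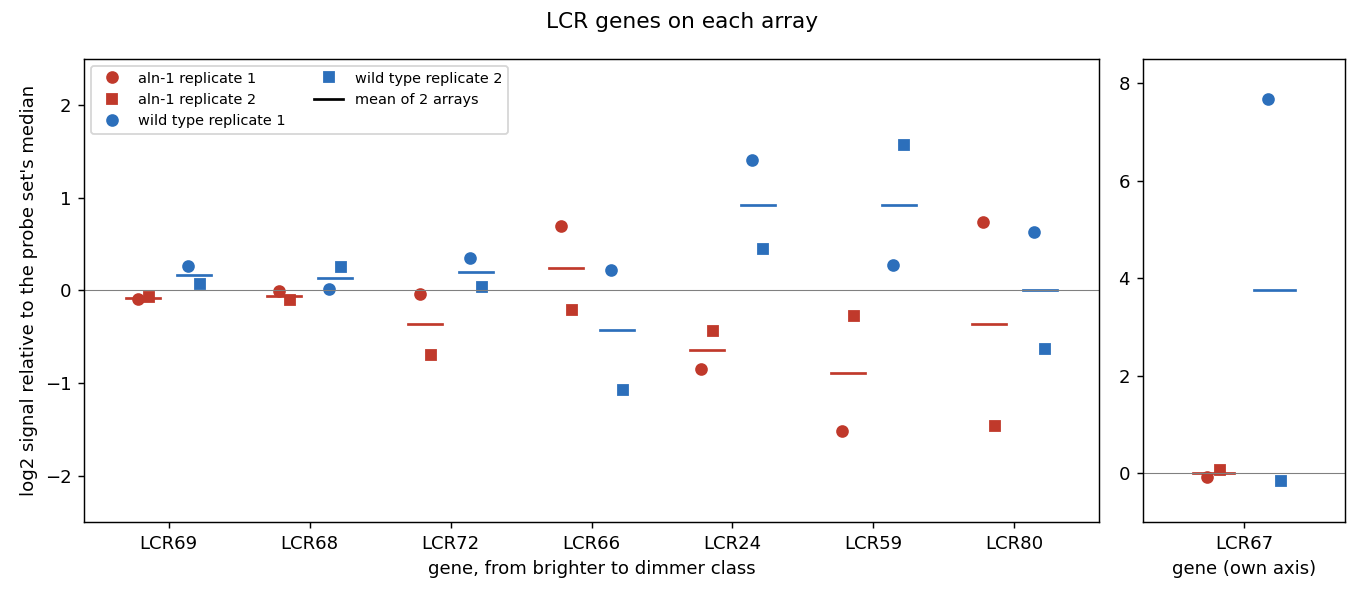
Log2 signal of the 8 LCR genes relative to each probe set's median (vertical axis) on the 2 aln-1 arrays (red) and the 2 Col-0 arrays (blue), with circles for replicate 1, squares for replicate 2 and lines for the means; LCR67 has its own axis. The arrays of LCR68 and LCR69 lie within 0.36 of one another, those of the dim genes are spread more widely, and LCR67 is at 7.68 on Col-0 replicate 1 alone.

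The bright genes LCR69 and LCR68 differed least. LCR69 (PDF2.2) was at -0.10 and -0.07 on the aln-1 arrays and at 0.26 and 0.07 on the Col-0 arrays. Both aln-1 arrays were lower, by a small margin, and the mean was -0.08 ± 0.02 in aln-1 against 0.16 ± 0.14 in Col-0 (SD, n = 2 each). The difference was -0.24 (SE 0.15, 95% interval -0.69 to 0.20), or 1.18-fold lower, with a limma adjusted p = 0.395. LCR68 (PDF2.3) was at -0.01 and -0.10 on the aln-1 arrays and at 0.01 and 0.26 on the Col-0 arrays. The nearest arrays of the genotypes were 0.02 apart, and the groups overlapped once each array was centred on its own median or the arrays were quantile normalized. Its difference was -0.19 (SE 0.16, 95% interval -0.68 to 0.30, limma adjusted p = 0.526). Without Col-0 replicate 1 LCR68 was at -0.31 and LCR69 at -0.15, and without Col-0 replicate 2 LCR68 was at -0.067. For these 2 genes the intervals leave room for a change in either direction but not for a 2-fold one.

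In the middle class LCR72 and LCR66 went in opposite directions, neither past the test. LCR72 (PDF2.6) was at -0.04 and -0.70 on the aln-1 arrays and at 0.35 and 0.04 on the Col-0 arrays. Both aln-1 arrays were lower, the nearest pair by 0.08, with a difference of -0.56 (SE 0.31, 95% interval -1.49 to 0.37, limma adjusted p = 0.358). Leaving out aln-1 replicate 2 gave -0.23, and leaving out aln-1 replicate 1 gave -0.89. LCR66 (PDF2.4), the 1 LCR gene with a higher mean in aln-1, was at 0.69 and -0.22 on the aln-1 arrays and at 0.22 and -1.08 on the Col-0 arrays. These groups overlapped, and replicates of one genotype were further apart than the genotype means, at 0.24 ± 0.64 in aln-1 and -0.43 ± 0.91 in Col-0 (SD, n = 2 each). The difference of 0.67 (SE 0.62, 95% interval -1.21 to 2.54, limma adjusted p = 0.556) ranged from 0.02 without Col-0 replicate 2 to 1.31 without Col-0 replicate 1.

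In all, 3 LCR genes had means at least 2-fold lower in aln-1, LCR24, LCR59 and LCR67, and all were among the 4 dim ones; 0 of the other 4 genes were 2-fold apart. Over all probe sets, 9.82% had means at least 2-fold lower and 10.9% at least 2-fold higher in aln-1, but 45.8% of the dim class were 2-fold apart in one direction or the other. The median SD within a genotype was 0.97 in the dim class, against 0.27 in the middle and 0.14 in the bright class.

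LCR24, in a run of LCR genes in the gene table (locus AT4G29285), was at -0.85 and -0.44 on the aln-1 arrays and at 1.41 and 0.44 on the Col-0 arrays. Both aln-1 arrays lay below both Col-0 arrays, with 0.88 between the nearest pair. Its mean was -0.64 ± 0.29 in aln-1 and 0.93 ± 0.68 in Col-0 (SD, n = 2 each), a difference of -1.57 (SE 0.42, 95% interval -2.85 to -0.29), or 2.97-fold lower. This was the smallest p of the LCR genes, 0.0287 unadjusted and 0.174 after limma's adjustment over all probe sets. The difference lay between -2.05 and -1.09 in the 9 alternative settings that could be run. Its direction could have turned only with array centring or quantile normalization, which gave -1.51 and -1.56. The replicate block and the variance priors leave a difference unchanged, and a left-out array cannot turn one whose groups do not overlap. In the alternatives that kept all arrays, the limma adjusted p was 0.141 to 0.278.

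LCR59 (locus AT4G30070) was at -1.51 and -0.27 on the aln-1 arrays and at 0.27 and 1.57 on the Col-0 arrays. The groups did not overlap, yet the replicates of each genotype were over 2-fold apart, and the nearest arrays of the genotypes differed by 0.54. The difference was -1.82 (SE 0.71, 95% interval -3.94 to 0.31, limma adjusted p = 0.251), and it was -1.17 without Col-0 replicate 2 and -1.19 without aln-1 replicate 1. LCR80 (locus AT5G38330) was at 0.73 and -1.47 on the aln-1 arrays and at 0.63 and -0.63 on the Col-0 arrays. Its groups overlapped with all 4 arrays. The difference of -0.37 (SE 0.99, limma adjusted p = 0.844) turned to 0.73 without aln-1 replicate 2 and to 0.27 without Col-0 replicate 1.

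For LCR67 a single array held nearly all of the variation. The gene is PDF1.1, a defensin known from seeds. It was at -0.08 and 0.08 on the aln-1 arrays and at 7.68 and -0.16 on the Col-0 arrays. Col-0 replicate 1 thus stood 7.60 above the next array on the log2 scale, while the other 3 arrays lay within 0.24 of one another. Among the deposited values of all 22746 probe sets this was rank 1 for the excess of the highest array over the next. The gene is in the dim class and the values hold no background, so the other 3 arrays may lie at background and no fold is given. The mean difference of -3.76 (SE 3.04, 95% interval -12.89 to 5.37, limma adjusted p = 0.503) rested on that 1 array: without Col-0 replicate 1 the difference was 0.16, in the opposite direction.

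**Figure D2:**
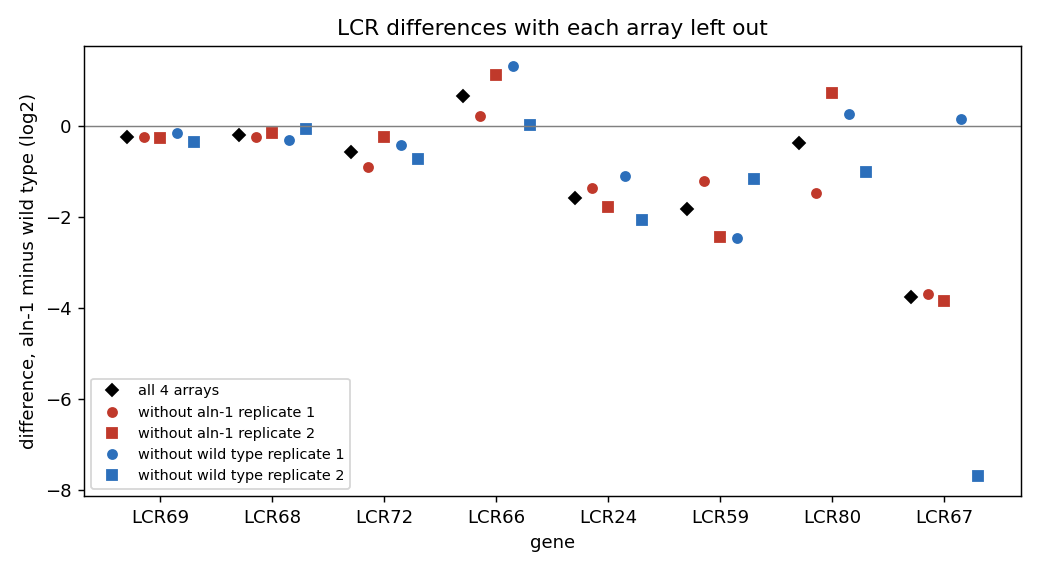
Difference between aln-1 and Col-0 (log2, vertical axis) for each LCR gene with all 4 arrays (black) and with each array left out in turn (red for an aln-1 array, blue for a Col-0 array). LCR67 moves between -7.68 and 0.16 and LCR80 between -1.47 and 0.73, while LCR24 stays between -2.05 and -1.09.

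Other transcripts were also high on Col-0 replicate 1 alone. That array stood at least 4-fold above the other 3 in 206 probe sets, compared with 141 for aln-1 replicate 1, 107 for aln-1 replicate 2 and 90 for Col-0 replicate 2. By Euclidean distance over the 4 arrays, the 3 named genes with a pattern most like that of LCR67 were M10, BGLU31 and AT1G03890, at distances of 2.03, 2.47 and 2.89. M10, which encodes a protein of the late embryogenesis abundant kind, was at -0.06 and 0.06 on the aln-1 arrays and at 5.65 and -0.21 on the Col-0 arrays. BGLU31, a beta-glucosidase gene, was at 0.31 and -1.38 on the aln-1 arrays and at 5.74 and -0.31 on the Col-0 arrays. AT1G03890 was listed at 0 on 3 arrays and at 4.79 on Col-0 replicate 1. Whether its equal values are a floor set in the processing was not tested, and no fold is given for it.

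PAP85, a vicilin-like seed protein gene picked after its values were seen, was at -0.40 and -1.94 on the aln-1 arrays and at 4.25 and 0.40 on the Col-0 arrays. Of the 11 seed storage and oil body genes listed as markers, 0 were measured by a named probe set. Of 13 flower and pollen markers 2 had one: the pollen tube receptor kinase gene ANX1 was at -0.83 and -0.40 on the aln-1 arrays and at 3.11 and 0.40 on the Col-0 arrays, and its relative ANX2 at 0.80 and -0.80 on the aln-1 arrays and at 1.33 and -0.87 on the Col-0 arrays. Both were highest on Col-0 replicate 1, and both were in the dim class. The part of seed or flower transcripts in the LCR67 value was not tested.

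**Figure D3:**
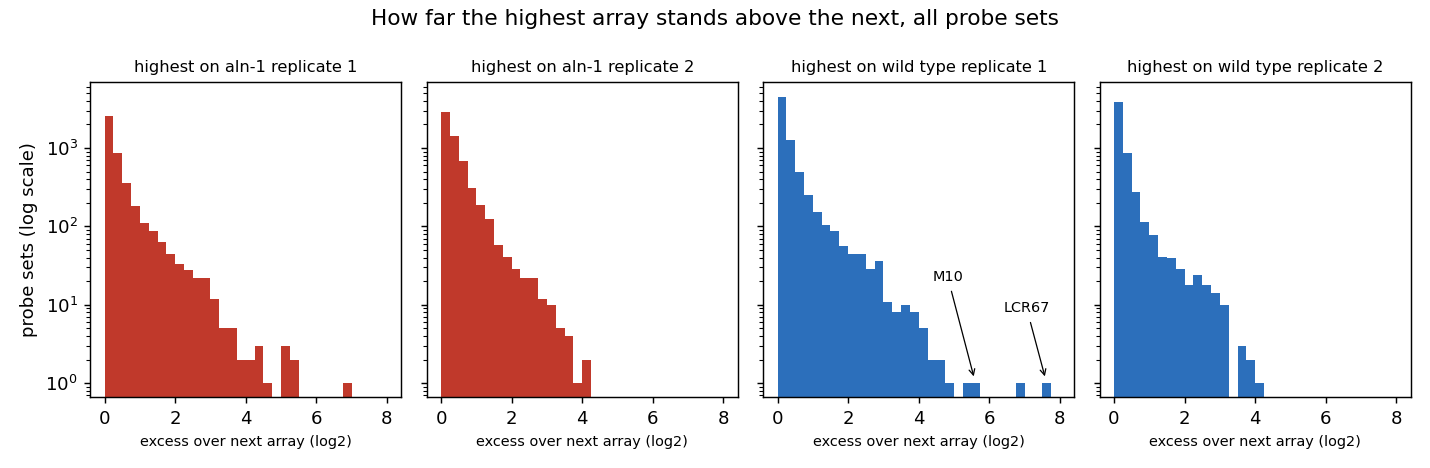
Histograms of the excess of the highest array over the next one (log2, horizontal axis) for all probe sets, split by which array was highest, with the number of probe sets on a log axis; aln-1 arrays are red and Col-0 arrays blue. Col-0 replicate 1 has the longest tail, and LCR67, at 7.60, is its end point.

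The pattern of LCR66 over the 4 arrays was most like those of SWEET3, a sugar transporter gene, AT3G44700 and AT4G10440, at Euclidean distances of 0.10, 0.18 and 0.19 among all named genes. SWEET3 was at 0.63 and -0.16 on the aln-1 arrays and at 0.16 and -1.10 on the Col-0 arrays. Its groups overlapped as for LCR66, which follows from its choice by distance.

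Defensin genes whose first symbol is PDF had log2 differences of -5.70 to 2.20, each at least 2-fold, compared with -0.56 to 0.67 for the bright and middle LCR genes. In limma 0 of these 5 passed over all probe sets; at an unadjusted limma p under 0.05 there were 5 of 5, 2 higher and 3 lower, beside 11.1% of all probe sets higher and 12.3% lower at that limit. Of them, 4 carry an LCR number as a synonym. PDF2.5 (LCR74) was at 1.02 and 0.92 on the aln-1 arrays and at -1.54 and -0.92 on the Col-0 arrays, a difference of 2.20 (SE 0.28, limma adjusted p = 0.0881). PDF2.1 (LCR70), the neighbour of LCR68 in the gene table, was at 0.54 and 0.40 on the aln-1 arrays and at -0.92 and -0.40 on the Col-0 arrays, a difference of 1.13 (SE 0.24, limma adjusted p = 0.142). Of the LCR genes with a PDF2 name, LCR66 had a mean higher in aln-1 by 0.67 and LCR68, LCR69 and LCR72 had differences of -0.19, -0.24 and -0.56, none past the test; the difference between these genes and PDF2.1 or PDF2.5 was not tested.

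PDF1.4 (LCR78) was at -0.51 and -0.42 on the aln-1 arrays and at 0.81 and 0.42 on the Col-0 arrays, a difference of -1.09 (SE 0.20, limma adjusted p = 0.121). PDF1.2 (LCR77) and PDF1.2b, the jasmonate and ethylene responsive defensins, had differences of -3.74 (SE 0.54, limma adjusted p = 0.0966) and -5.70 (SE 1.29, limma adjusted p = 0.147). PDF1.2b was at -1.83 and -5.03 on the aln-1 arrays and at 2.71 and 1.83 on the Col-0 arrays. Whether its probe set also reads PDF1.2 was not tested, so these 2 genes may not count separately. PDF1.2, PDF1.2b and the thionin gene THI2.1, at 2.66 (SE 0.28), were the 3 with a named probe set among 16 listed jasmonate and ethylene defence symbols. In limma 0 of 3 passed over all probe sets. All 3 had an unadjusted limma p under 0.05, 1 higher and 2 lower, where 11.1% of all probe sets were higher and 12.3% lower.

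**Figure D4:**
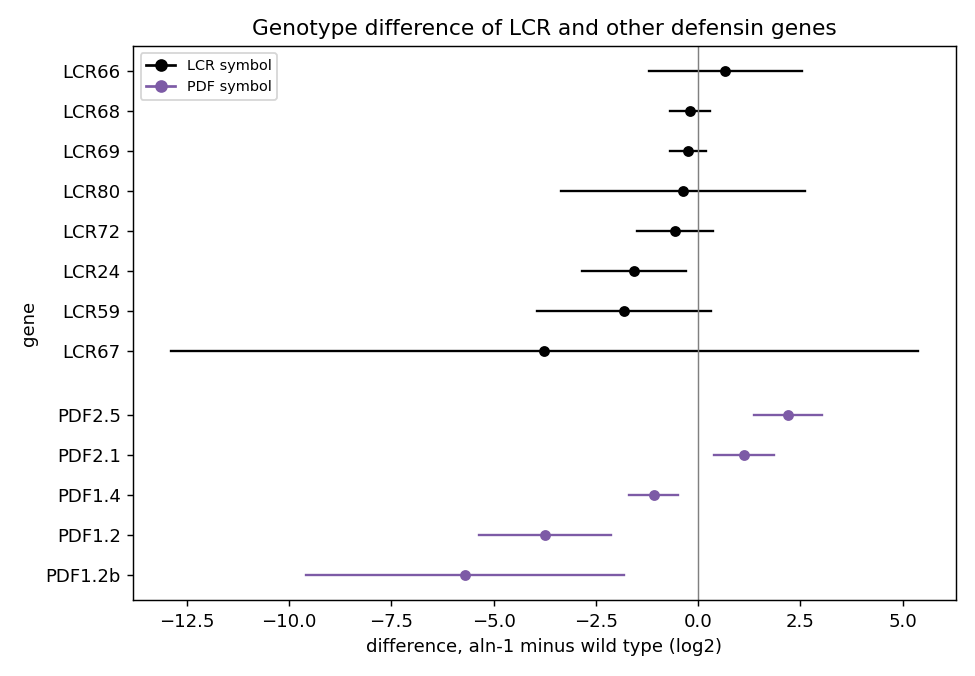
Difference between aln-1 and Col-0 (log2, horizontal axis; points) with the 95% confidence interval of limma (lines) for the 8 genes with an LCR symbol (black) and the 5 defensin genes with a PDF symbol (purple). The interval of LCR24 is the only one among the LCR genes that leaves out 0, before adjustment over all probe sets. With variance priors within brightness classes, 0 of 8 LCR genes had an unadjusted limma p under 0.05. The interval of LCR67 spans -12.89 to 5.37.

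Other families of cysteine-rich secreted peptides were thinly covered. Of RALF peptide genes 11 were measured, with a median difference of -0.0040, and 0 of 11 passed in limma (4 had an unadjusted p under 0.05, all higher, where 11.1% of all probe sets were higher). Both measured thionins, 1 higher and 1 lower, missed the adjusted threshold and had an unadjusted limma p under 0.05, where 11.1% of all probe sets were higher and 12.3% lower. Of genes with a SCRL, GASA, LTP, EPF or EPFL symbol, 0 were measured by a named probe set. Of the 32 places within 2 genes of an LCR gene in the gene table, 9 held another gene with LCR as its first symbol, and 6 held a measured gene. LCR71 filled a place beside both LCR68 and LCR72, and 0 of the 9 places were measured. ETL1, next to LCR69 and a chromatin remodelling gene of the SWI/SNF type, was at 0.41 and 0.45 on the aln-1 arrays and at -0.41 and -0.45 on the Col-0 arrays, a difference of 0.86 (SE 0.13, limma adjusted p = 0.101). The other 5 measured neighbours, PDF2.1 among them, had differences of -0.27 to 1.47 with limma adjusted p of 0.142 to 0.959.

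The root markers were separated by genotype on the same arrays: 3 of 12 were measured, all with both aln-1 arrays above both Col-0 arrays (25.2% of all probe sets were so), from 0.08 to 0.86 on the aln-1 arrays and from -1.27 to -0.08 on the Col-0 arrays. The differences were 1.43 for EXPA7 (SE 0.36, limma adjusted p = 0.162) and 1.14 for EXPA18 (SE 0.25, limma adjusted p = 0.146), expansin genes of root hairs. PYK10, a beta-glucosidase gene of roots, was at 0.20 (SE 0.13, limma adjusted p = 0.418). In limma 0 of these 3 passed over all probe sets. At an unadjusted limma p under 0.05 there were 2, both higher, where 11.1% of all probe sets were higher. Of 11 shoot markers 2 were measured. LHCB4.1, a light-harvesting protein gene in the bright class, differed by -0.19 (SE 0.17), and FMA, a guard cell regulator, by -0.44 (SE 0.14). The part of root tissue in the LCR values was not tested, and in whole shoots fewer cells of a type and less RNA per cell cannot be told apart.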

How the data were processed

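Affymetrix arrays measured transcripts in 4 seedling samples. The deposited table holds log2 values of 22746 probe sets made by the authors from MAS5 signals, per the submitters' processing notes; its version and scaling and the logarithm step are not stated there. In each of the 22746 rows both middle values cancelled to within 2e-06, so the values are relative to each probe set's median and hold no signal level. Base 2 was inferred: rounding steps that mean signals of at least 256 with base 2 occurred in 45.6% of probe sets (150 had no readable step and were counted there), and with natural logarithms would mean at least 2981. Fold changes rest on that base. The brightness class is only approximate, as some dim probe sets will show a coarse step.

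Of the probe sets, 13513 had 1 gene in the array's annotation, 503 several and 8730 none; 13436 matched the RefSeq table of TAIR10.1, used for names and neighbours only. Genotypes came from the sample titles. Values were fitted as deposited with limma 3.58.1 in R 4.3.3 (lmFit on genotype, eBayes, two-sided, Benjamini-Hochberg over 22746 probe sets, threshold 0.05, no filter), after a test on simulated data. The number of arrays limits the precision.

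The members and gene lists were chosen with earlier results of these data known. Named were all LCR genes, ALN, measured defensin and jasmonate or ethylene defence genes, marker genes, neighbours within 2 places, and the 3 nearest patterns of the LCR genes with the largest positive and negative difference. PDF1A and PDF1B, peptide deformylases, matched the defensin symbol by letters and were left out. Alternatives were a replicate block, array centring, quantile normalization, other variance priors, dim probe sets left out, each array left out and a threshold of 0.1.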

Additional observations from a re-analysis of the deposited data

How the results depend on the processing

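In limma, 0 of 8 LCR genes passed in every alternative run (0 of the 4 measured without the dim class), with 0 to 2 at an unadjusted p under 0.05. Of 76 pairs of an LCR gene and an alternative, 73 kept their direction and 3 turned. Many of these pairs could not turn. The replicate block, the variance priors and dropping the dim class leave a difference unchanged, and a left-out array cannot turn one whose groups do not overlap. LCR67 ranged from -7.68 to 0.16 with each array left out. LCR80 ranged from -1.47 to 0.73, at 0.73 without aln-1 replicate 2 and 0.27 without Col-0 replicate 1. The median LCR difference of -0.46 was -0.22 without the dim class, where 4 genes remain, and -1.04 to -0.23 with an array left out. LCR genes wholly lower in aln-1 numbered 5, and 4 after centring or quantile normalization, 3 without the dim class and 5 to 6 with 1 array fewer, a looser rule. Those wholly higher numbered 0, and 0 to 2 with an array left out. Over all probe sets 34.9% were wholly lower and 25.2% wholly higher on the values as deposited. Shares under the alternatives are not given, so the counts there have no background to be read against.

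Over all probe sets limma made 58 calls (5332 at an unadjusted p under 0.05), and 82 with each array centred on its own median (5234). It made 0 with the replicate number as a block (4460), 0 after quantile normalization (5713) and 0 with a robust prior (5084). Calls numbered 1059 with priors within brightness classes, 882 when the dim class was dropped and 1078 at an adjusted p under 0.1; the cause was not tested. ALN, at -3.46, passed with the class priors (limma adjusted p 0.0231) and without the dim class (0.0250). Whether the replicate numbers pair the arrays is not known, as the labels name no block. Deviations of same-numbered arrays correlated at 0.0209 over probe sets, which are not independent replicates, and this value cannot exclude pairing. The values hold no background, so how far an LCR signal stood above it is unknown.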
